A study of Homo sapiens with 9 samples.

Results

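The transcripts described here encode 10 integrin subunits: the alpha chains ITGA1, ITGA2, ITGA3, ITGA4, ITGA5, ITGA6 and ITGAV and the beta chains ITGB1, ITGB3 and ITGB5. They are 10 of the 57820 genes in the deposited count table, and all 10 were among the 18618 genes with enough counts to be tested. They were matched to the table by Ensembl gene identifier. ITGA1 was chosen by its measured level, which was low in tumours with RNF4 and Dox, so its values in the comparisons that hold those tumours are a description and not a test. The other subunits were taken with it as members of the same receptor family.

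RNA was sequenced from xenografts of A375, a BRAF-mutant human melanoma line, grown in immunodeficient nude mice. Stable lines expressed, once doxycycline (Dox) was present, either RNF4, a ubiquitin ligase that acts on SUMO-modified proteins, or a version of it whose RING mutation removes the catalytic activity. The mice drank water with Dox starting on day 3 and the tumours were removed on day 30. Each library held RNA of 2 pooled tumours, and the 9 libraries formed 3 groups of 3, named here by their column numbers. T1, T4 and T12 carried the RNF4 construct and received no Dox, T2, T5 and T13 carried the RNF4 construct and received Dox, and T3, T6 and T14 were labelled RING mutant with Dox. Every group thus held an RNF4 construct in a stable line made from A375, and no group received Dox without one. RNF4 and its RING mutant were carried by different stable lines. In comparisons with the RING mutant label, construct and stable line therefore cannot be told apart. The series text names tumours with GFP as the control, whereas the sample titles give RNF4 without Dox, and the titles were followed. The labels do not say how many clones the stable lines came from. Nude mice lack a normal thymus and so most T cells, but they supply blood vessels, stroma and other immune cells to a graft.

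RNF4 itself was read first, as a check of the constructs. Its normalised read count, in CPM (counts scaled to a common library size), was 33.4, 52.0 and 43.2 in T1, T4 and T12. With RNF4 and Dox (T2, T5 and T13) it was 380.1, 413.0 and 454.4 CPM. Among the 3 labelled RING mutant it was 559.2 CPM in T6, but 47.1 CPM in T3 and 63.5 CPM in T14. Only T6 of that label stood apart from the libraries without Dox, so statements on this group concern libraries by their label. Total counts ran from 16416426 to 28934692 per library, of which the 10 integrins took 22166 to 58151. Ribosomal protein genes were taken as symbols made of RPL or RPS and a number, with or without A, L, X or Y and a further number after it. They made up 24.9% (T1) and 15.2% (T2) of counts, and 6.02% to 8.99% elsewhere.

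Integrins are receptors for the extracellular matrix, made of 1 alpha and 1 beta chain that cross the membrane side by side. The alpha chain largely sets the ligand: the chains of ITGA1 and ITGA2 bind collagens, those of ITGA3 and ITGA6 laminins, that of ITGA5 fibronectin, that of ITGA4 fibronectin and VCAM1, and that of ITGAV proteins with an RGD motif such as vitronectin. ITGB1 encodes the partner of most of these alpha chains, whereas the chains of ITGB3 and ITGB5 pair with that of ITGAV. Inside the cell the beta chain recruits talin, kindlin and focal adhesion kinase. In melanoma the pair of ITGAV and ITGB3 is known as a marker of the invasive, vertical growth phase.

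ITGA1 and its neighbour ITGA2 lie in tandem on the plus strand of chromosome 5. By GENCODE 29 on GRCh38, ITGA1 (ENSG00000213949.4 in the deposited table) spans 52787896 to 52959210, and ITGA2 (ENSG00000164171.6) starts 30115 bases further on and spans 52989326 to 53094779. Another gene, PELO, which encodes a factor that rescues stalled ribosomes, starts 44 bases inside ITGA1 on the same strand, at 52787940, and ends at 52804046. In the RefSeq promoter table (GRCh38.p14), ITGA1 and PELO have the same start and the same promoter window, whereas ITGA2 has its own. Both windows are shown because the pair under a shared window and the pair of collagen-binding alpha chains are compared below. The 250 bases before each start are given 5′ to 3′ on the plus strand, chr5:52787666-52787915 for ITGA1 and PELO and chr5:52989102-52989351 for ITGA2, with matches to the GC box GGGCGG on either strand in capitals.
ITGA1 and PELO: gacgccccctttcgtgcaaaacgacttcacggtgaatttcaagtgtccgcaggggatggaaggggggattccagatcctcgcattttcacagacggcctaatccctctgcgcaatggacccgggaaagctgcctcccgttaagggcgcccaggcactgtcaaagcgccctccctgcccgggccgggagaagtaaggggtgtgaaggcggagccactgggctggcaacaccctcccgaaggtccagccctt
ITGA2: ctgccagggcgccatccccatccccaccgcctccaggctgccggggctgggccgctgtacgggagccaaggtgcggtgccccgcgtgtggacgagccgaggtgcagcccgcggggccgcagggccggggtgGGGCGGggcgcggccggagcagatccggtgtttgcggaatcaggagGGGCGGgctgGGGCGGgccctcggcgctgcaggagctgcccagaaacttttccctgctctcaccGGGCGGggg
The window of ITGA2 held 4 GC boxes and that of ITGA1 and PELO held 0. Neither held a match to the AP-1 motif TGANTCA, the CCAAT box CCAAT, the TATA box TATAAA or the E-box CACGTG, searched on both strands over the full windows of 300 bases (250 before and 50 after the start), in which none of the motifs overlapped another. Among 34943 such windows the shares with a match were 44.9% for the GC box, 7.72% for AP-1, 34.6% for CCAAT, 11.6% for the TATA box and 7.23% for the E-box. GC content was 61.7% for the window of ITGA1 and PELO and 72.7% for that of ITGA2, against a median of 58.7% over all windows. Of the 10 integrins, 8 had at least 1 window in the table, and 8 of their 13 windows held a GC box.

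ITGA1, whose chain pairs with that of ITGB1 to form a receptor with a preference for collagen IV, stood at 98.0, 73.5 and 91.0 CPM in T1, T4 and T12, without Dox. With RNF4 and Dox (T2, T5 and T13) it stood at 50.1, 35.6 and 34.2 CPM. Under the RING mutant label it stood at 71.2, 61.3 and 78.9 CPM in T3, T6 and T14. All 3 libraries with RNF4 and Dox lay below each of the other 6, and the other groups overlapped. Group means were 87.5 ± 12.6 CPM (SD, n = 3) without Dox, 39.9 ± 8.82 CPM with RNF4 and Dox, and 70.5 ± 8.82 CPM for the RING mutant label. The fitted log2 difference of RNF4 with Dox was -1.13 ± 0.22 (SE) against no Dox and -0.82 ± 0.21 against the RING mutant label. Both rest on the same libraries with RNF4 and Dox, by which the gene was chosen, and carry no test here. With T1 and T2 left out, the libraries high in ribosomal protein genes, the values were -1.24 and -1.03. With a term for consecutive column numbers (T1 to T3 as a run, T4 to T6 as another, T12 to T14 as the last) they were -1.14 and -0.83.

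The comparison of ITGA1 that holds no library with RNF4 and Dox is the RING mutant label against no Dox. It is not independent of the choice, since the libraries without Dox were also part of the contrast by which ITGA1 was chosen. Its log2 difference was -0.31 ± 0.21 (SE), with an unadjusted p of 0.17 and an adjusted p of 1 in edgeR's quasi-likelihood test, and the groups overlapped through T4 at 73.5 and T14 at 78.9 CPM. Within that label, T6 was the library with RNF4 at 559.2 CPM, and its ITGA1 level of 61.3 CPM was the lowest of the 3. It still lay above all libraries with RNF4 and Dox, of which the highest was T2 at 50.1 CPM. T3 and T14, with RNF4 near its level without Dox, had ITGA1 at 71.2 and 78.9 CPM. With 1 library at a high RNF4 level under this label, a difference within it has no replicate check.

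**Figure D1:**
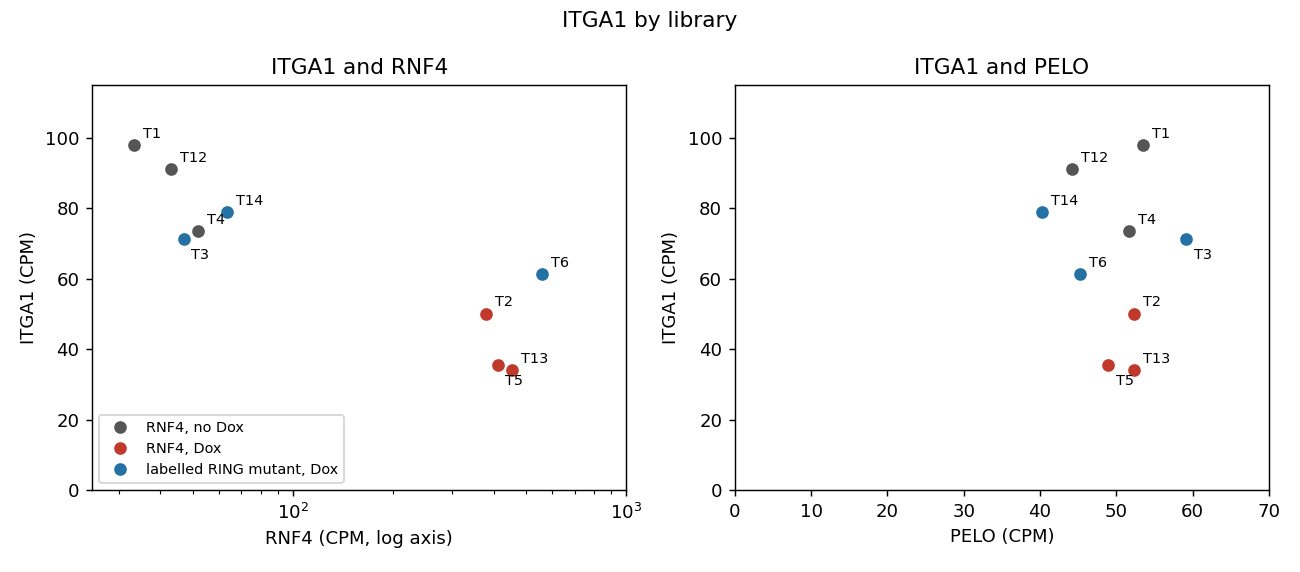
ITGA1 in CPM (vertical axes, from 0) against RNF4 in CPM on a log axis (left) and against PELO in CPM (right), 1 point per library, coloured by group and labelled by column number. The 3 libraries with RNF4 and Dox sit lowest, between 34.2 and 50.1 CPM, T6 sits next at 61.3 CPM, and the groups overlap in PELO (40.2 to 59.2 CPM over all 9 libraries).

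PELO, which shares its promoter window with ITGA1, stood at 53.4, 51.6 and 44.2 CPM in T1, T4 and T12, at 52.3, 49.0 and 52.4 CPM with RNF4 and Dox, and at 59.2, 45.2 and 40.2 CPM in T3, T6 and T14. The 3 groups overlapped, and the log2 difference of RNF4 with Dox against no Dox was 0.04 ± 0.19 (SE). The ratio of ITGA1 to PELO, in CPM, was 1.77 ± 0.32 (SD, n = 3) without Dox, 0.779 ± 0.159 with RNF4 and Dox, and 1.51 ± 0.40 for the RING mutant label. It was 0.652 to 0.958 in the libraries with RNF4 and Dox and 1.20 to 2.06 in the other 6. As ITGA1 was chosen for its low level in the former libraries, the split of the ratio restates that choice and is not a separate result. PELO and ITGA1 share 475 exon bases, 2.56% of the exon bases of ITGA1, where reads of either gene may have been set aside or assigned to the other. A pseudogene, AC022133.1, covers 3.08% of the exon bases of ITGA1 and had 0 counts, and a pair of antisense genes, AC022126.1 and AC025180.1, had 4 and 7 counts over all libraries against 12699 for ITGA1. ITGA2 on the other side showed no such split between groups, as given next.

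ITGA2, whose chain forms the other collagen receptor, one with a preference for fibrillar collagen, stood at 83.4, 60.5 and 100.2 CPM in T1, T4 and T12. It stood at 71.3, 74.9 and 68.1 CPM with RNF4 and Dox and at 81.6, 69.7 and 83.5 CPM in T3, T6 and T14. The libraries without Dox spanned all the others. Log2 differences were -0.19 ± 0.21 (SE) for RNF4 with Dox against no Dox, -0.13 ± 0.21 for RNF4 with Dox against the RING mutant label and -0.06 ± 0.21 for that label against no Dox. Among the further genes listed as neighbours at this locus, ISL1, a LIM homeobox factor gene, had 0.28 ± 0.27 in RNF4 with Dox against no Dox. FST, for the activin inhibitor follistatin, had 0.12 ± 0.23, ARL15 had 0.18 ± 0.31, and NDUFS4, for a subunit of respiratory complex I, had -0.37 ± 0.65. MOCS2, a gene of molybdenum cofactor synthesis that lies beyond ITGA2 on the minus strand, had -0.38 ± 0.59 and was highest in T1 at 267.5 and T2 at 171.3 CPM, the libraries high in ribosomal protein genes. It was 59.3 to 100.9 CPM in the other 7.

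**Figure D2:**
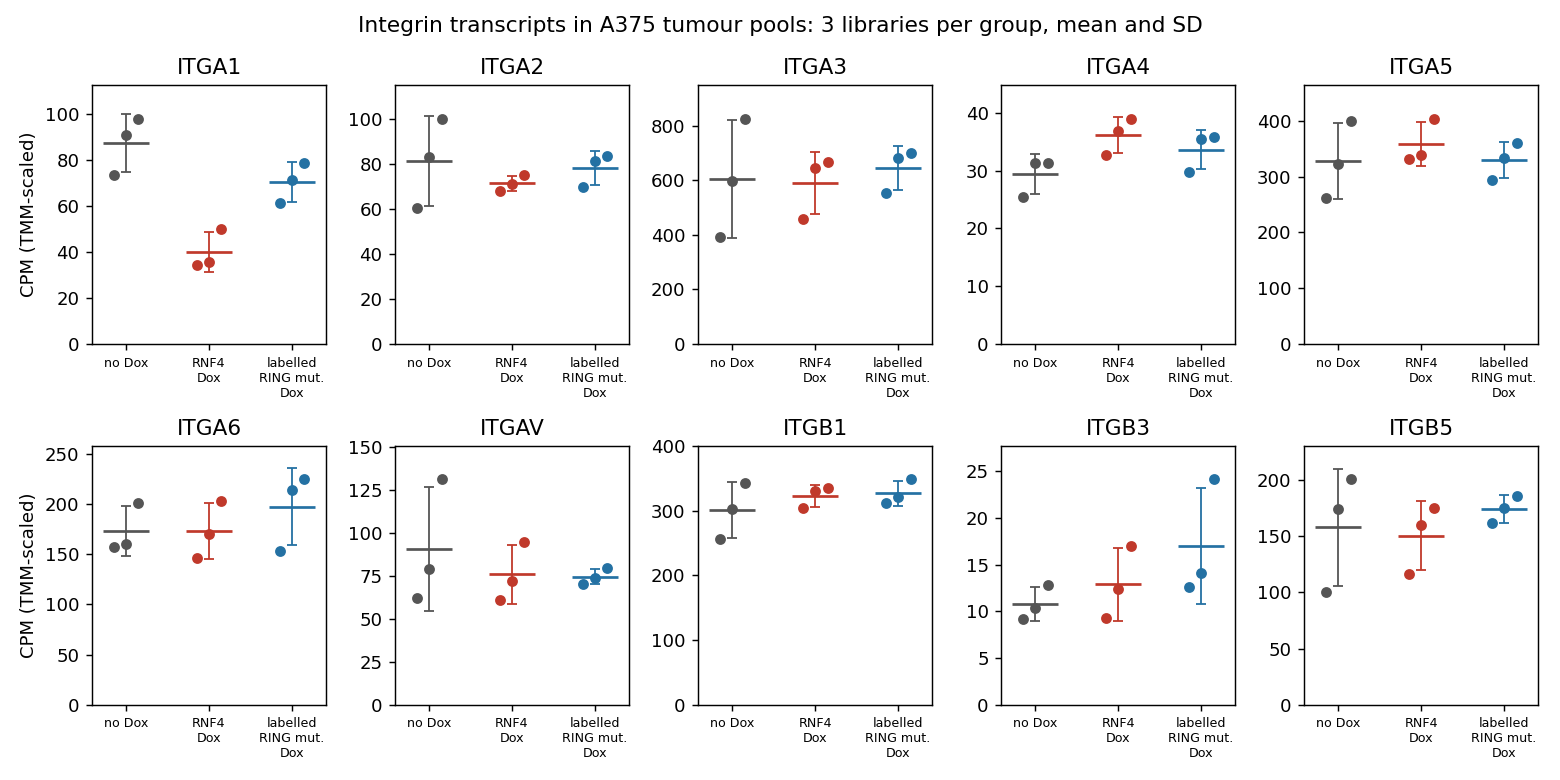
Normalised read counts (CPM, vertical axes from 0) of the 10 integrin transcripts in the 3 groups. Points are libraries, horizontal lines are means and bars are SD (n = 3 pools of 2 tumours); only for ITGA1 do the libraries with RNF4 and Dox (34.2 to 50.1 CPM) lie apart from both other groups.

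The laminin-binding alpha chains were ITGA3 and ITGA6. ITGA3 (chromosome 17, 50055968 to 50090481, plus strand) stood at 392.6, 598.8 and 825.9 CPM without Dox in T1, T4 and T12. It stood at 459.8, 666.8 and 645.9 CPM with RNF4 and Dox, and at 683.4, 553.0 and 700.2 CPM in T3, T6 and T14. T1 and T2 were its lowest libraries and T12 the highest, and its log2 difference for RNF4 with Dox against no Dox was -0.04 ± 0.31 (SE). ITGA6 (chromosome 2, 172427354 to 172506282, plus strand) stood at 157.5, 160.7 and 201.5 CPM without Dox, at 170.5, 146.4 and 202.9 CPM with RNF4 and Dox, and at 214.4, 153.3 and 224.7 CPM under the RING mutant label. Its group means without Dox and with RNF4 and Dox differed by less than the spread of either group. Against the RING mutant label the log2 differences of RNF4 with Dox were -0.13 ± 0.31 for ITGA3 and -0.19 ± 0.23 for ITGA6.

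ITGA5 and ITGA4 encode chains that bind fibronectin. ITGA5 (chromosome 12, 54395261 to 54419460, minus strand) stood at 261.7, 323.2 and 399.4 CPM without Dox, at 338.2, 403.9 and 332.5 CPM with RNF4 and Dox and at 360.3, 294.9 and 333.7 CPM under the RING mutant label. Its groups overlapped in all 3 comparisons, with a log2 difference of 0.13 ± 0.23 (SE) for RNF4 with Dox against no Dox. ITGA4 (chromosome 2, 181457202 to 181536187, plus strand), whose chain also binds VCAM1 and carries leukocytes and melanoma cells across endothelium, stood at 25.5, 31.4 and 31.4 CPM in T1, T4 and T12. With RNF4 and Dox (T2, T5 and T13) it stood at 39.0, 32.8 and 36.8 CPM, all above the 3 libraries without Dox. The log2 difference was 0.30 ± 0.18, with an unadjusted p of 0.12 and an adjusted p of 1 in edgeR's quasi-likelihood test, and it was 0.15 without T1 and T2. Under the RING mutant label ITGA4 stood at 29.7, 35.5 and 35.7 CPM in T3, T6 and T14 and overlapped both other groups.

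ITGAV and its beta chains make the RGD receptors. ITGAV (chromosome 2, 186590065 to 186680901, plus strand) stood at 131.1, 62.3 and 78.7 CPM without Dox, at 94.8, 60.7 and 72.2 CPM with RNF4 and Dox and at 79.5, 73.9 and 70.4 CPM under the RING mutant label. T1 and T2 were its highest libraries. Its log2 difference for RNF4 with Dox against no Dox was -0.26 ± 0.28 (SE), and without T1 it was 0.12. ITGB5 (chromosome 3, 124761948 to 124901418, minus strand) was lowest in the same libraries, at 100.0 CPM in T1 and 116.2 CPM in T2, against 160.3 to 200.6 CPM in the other 7.

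ITGB3 (chromosome 17, 47253846 to 47311816, plus strand) was the lowest of the 10 in CPM. It stood at 10.4, 9.21 and 12.8 CPM without Dox, at 17.0, 9.27 and 12.4 CPM with RNF4 and Dox and at 24.1, 12.6 and 14.2 CPM under the RING mutant label. The widest difference of the 10 in the comparison of the RING mutant label with no Dox was that of ITGB3, at 0.65 ± 0.32 (SE), with an unadjusted p of 0.068 and an adjusted p of 1 in edgeR's quasi-likelihood test. It rested in part on T3, the library at 24.1 CPM, and was 0.31 without it. Another annotated gene on the same strand, AC068234.1, shares 51.6% of the exon bases of ITGB3 and had 0 counts in the table, so reads in the shared exons may have been set aside, and the level of ITGB3 is uncertain.

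ITGB1 (chromosome 10, 32900319 to 33005792, minus strand), the common partner, varied least. It stood at 256.2, 302.9 and 343.5 CPM without Dox, at 334.6, 303.6 and 330.3 CPM with RNF4 and Dox and at 348.4, 311.7 and 320.8 CPM under the RING mutant label. Its coefficient of variation over the 9 libraries was 8.85%, against 34.4% for ITGA1 and for ITGB3 and 12.5% to 26.8% for the other 7. The log2 difference of ITGB1 for RNF4 with Dox against no Dox was 0.10 ± 0.20 (SE). Exon length here joins all annotated exons of a gene, 18566 bases for ITGA1 and 6011 for ITGB1. Levels per length of ITGA1 depend on this long annotated length. Scaled to exon length, ITGA1 amounted to 9.61 ± 2.44% of ITGB1 (SD, n = 3) without Dox, 3.996 ± 0.77% with RNF4 and Dox and 6.98 ± 0.86% under the RING mutant label. Among the 7 alpha chains together, per length, ITGA1 made up 3.01 ± 0.82%, 1.37 ± 0.41% and 2.28 ± 0.12% in the same order. These percentages rest on the ITGA1 levels by which the gene was chosen, so their group differences are not a separate result. The share of ITGA3 was 37.5 ± 6.65%, 37.7 ± 4.78% and 39.5 ± 0.60%, and that of ITGA5 was 26.8 ± 1.20%, 29.7 ± 2.78% and 26.2 ± 1.21%.

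**Figure D3:**
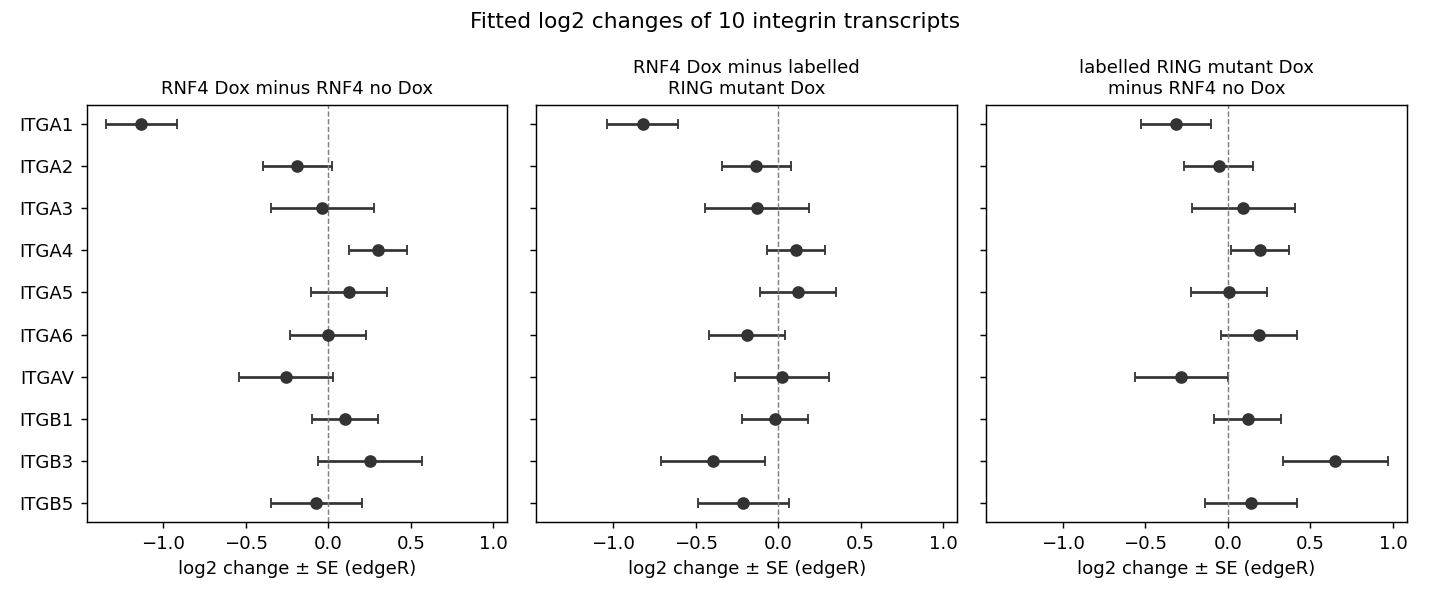
Fitted log2 changes (horizontal axes; points, with bars of 1 SE from edgeR) of the 10 integrin transcripts in the 3 comparisons, with a dashed line at 0. ITGA1 stands at -1.13 and -0.82 in the comparisons of RNF4 with Dox, while the other 9 lie between -0.40 and 0.30 in both.

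Over the whole table, the quasi-likelihood test of edgeR, adjusted by Benjamini-Hochberg, called 0 of 18618 genes (0%) in each of the 3 comparisons, and so 0 of the 10 integrins. Even the induced RNF4 was not called in RNF4 with Dox against no Dox. Its log2 difference there was 3.28 ± 0.84 (SE), with an unadjusted p of 0.0030 in this test. The fit shares 1 estimate of spread over all 3 groups, and RNF4 ran from 47.1 to 559.2 CPM under the RING mutant label. RNF4 is thus not a typical gene by which to judge the sensitivity of the test. With only the 6 libraries compared, 0 genes were called as well. RNF4 had an adjusted p of 0.0132 for this comparison in the authors' deposited table. The absence of calls therefore does not show that transcripts were unchanged. The smallest adjusted p was 0.99998 for RNF4 with Dox against no Dox, 0.99988 for RNF4 with Dox against the RING mutant label and 0.99996 for that label against no Dox. At an unadjusted p under 0.05 the counts were 25 genes higher and 86 lower, 187 higher and 64 lower, and 68 higher and 257 lower, in that order. Any difference among the 3 groups was called for 0 genes, with 205 at an unadjusted p under 0.05. DESeq2's Wald test called 3, 1 and 4 genes in the 3 comparisons, with ITGA1 as the only integrin, in RNF4 with Dox against no Dox (adjusted p of 0.00734, given as a description because the gene was chosen by this contrast). In the authors' deposited table, which tested 16002 genes, ITGA1 had a log2 value of -1.14 with an adjusted p of 0.536 in that comparison. By the authors' adjusted p-values, 0 of the 10 integrins were under 0.05 in any of the 3 comparisons. The submitters' processing notes name DESeq2, but the authors' deposited table also carries tagwise and trended dispersions of the kind edgeR writes, and its log2 values for the 10 integrins equal, to 3 decimals, those of the edgeR fit here with a filter of 1 CPM in 3 libraries, so the tool behind its adjusted p is not known. The libraries are separate tumour pools by the series text, and the 3 comparisons share groups with one another, so they are not independent.

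The groups did not overlap for 0.875% of the 18618 genes higher and 1.44% lower in RNF4 with Dox against no Dox. Of the 10 integrins, ITGA4 was in the first class and ITGA1 in the second. Against the RING mutant label the shares were 2.71% higher and 2.27% lower, with ITGA1 in the second class and 0 integrins in the first. For the RING mutant label against no Dox they were 1.20% higher and 2.58% lower, and 0 of the 10 integrins were in either class. With ITGA1 set aside as the gene chosen, 1 of the other 9 integrins separated in 1 comparison. The median log2 difference of the 10 was -0.02, -0.13 and 0.11 in the 3 comparisons, beside -0.03, 0.03 and -0.04 over all genes tested. In RNF4 with Dox against no Dox, 5 of the 10 lay above 0 and 5 below, and without T1 and T2 the counts were 2 and 8, with a median of -0.07.

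Per kilobase of exon, which allows genes to be ranked within a library, ITGA3 had the highest level of the 10, at 62.7 ± 13.4 CPM per kb (SD over 9 libraries). It was followed by ITGB1 at 52.7 ± 4.66, ITGA5 at 44.7 ± 6.01, ITGA6 at 27.8 ± 4.52 and ITGB5 at 24.98 ± 5.05 CPM per kb. Far below came ITGAV at 9.79 ± 2.62 and ITGA2 at 9.74 ± 1.47, and then ITGA4 at 4.19 ± 0.52, ITGA1 at 3.55 ± 1.22 and ITGB3 at 3.08 ± 1.06 CPM per kb. The low rank of ITGA1 depends on its annotated exon length of 18566 bases, against 6533 to 9802 for the other alpha chains. That of ITGB3 is uncertain, because reads in the exons it shares with AC068234.1 may have been set aside. The order of neighbours held in all 9 libraries for ITGA5 above ITGA6 and for ITGA2 above ITGA4. It held in 8 for ITGB1 above ITGA5 and for ITGB5 above ITGAV, and in 7 for ITGA3 above ITGB1. ITGA6 and ITGB5, ITGAV and ITGA2, ITGA4 and ITGA1, and ITGA1 and ITGB3 changed places between libraries, in the given order in 5, 4, 6 and 5 of 9, so these neighbours did not differ beyond their spread. By group, ITGA1 had 3.96 to 5.28 CPM per kb without Dox, 1.84 to 2.70 with RNF4 and Dox and 3.30 to 4.25 under the RING mutant label, while ITGA4 had 3.22 to 4.94 CPM per kb over all 9 libraries.

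**Figure D4:**
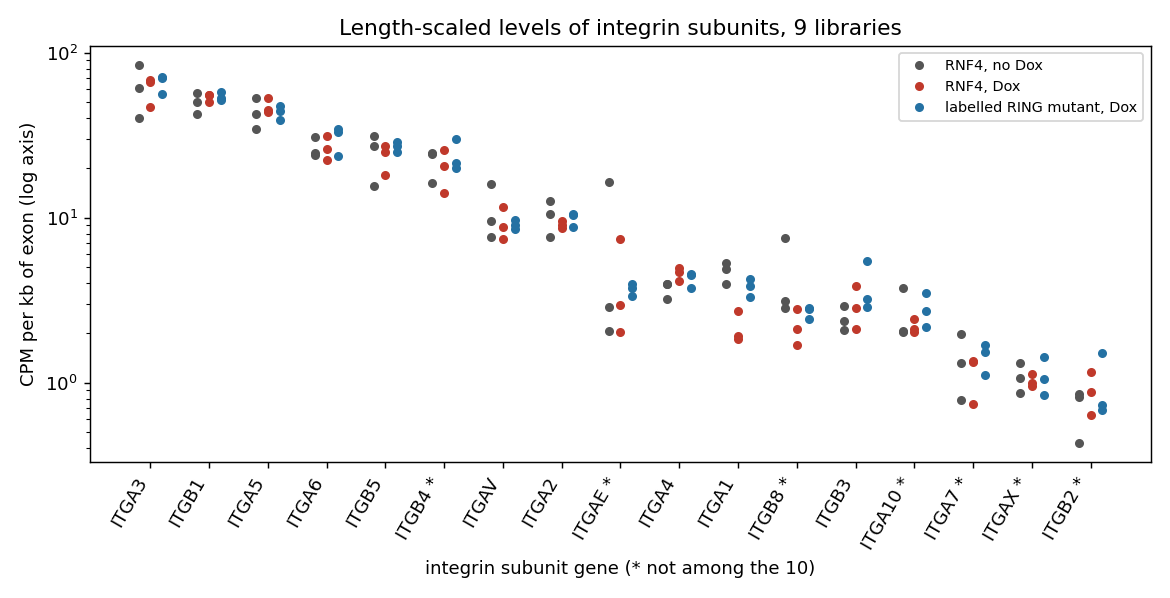
Level of integrin subunit genes in CPM per kb of exon (log axis), for subunits with a mean of 0.5 or more; points are libraries coloured by group, and an asterisk marks genes outside the 10. ITGA3, ITGB1 and ITGA5 lead at 44.7 to 62.7 CPM per kb on average, and ITGA1 lies near 3.55.

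Of 16 further integrin subunits, 14 had enough counts to be tested. ITGB4, the partner of ITGA6 in hemidesmosomes, was the most abundant of them at 21.8 ± 4.87 CPM per kb (SD over 9 libraries). In RNF4 with Dox against no Dox, 2 of the 14 lay above 0 and 12 below, with a median log2 difference of -0.30 beside -0.03 over all genes, and 0 were called. Many of the 14 lay near the floor, such as ITGAD at 0.091 and ITGB6 at 0.11 CPM per kb. Their log2 differences were imprecise, with an SE of 0.63 for ITGB6 and 0.54 for ITGAD, so the count does not show a shift of the family. Without T1 and T2, 3 lay above 0 and 11 below, with a median of -0.29. ITGB8, whose chain pairs with that of ITGAV and takes part in the activation of latent TGF-beta, stood at 114.2, 47.3 and 42.8 CPM in T1, T4 and T12. It stood at 25.8, 42.1 and 32.0 CPM with RNF4 and Dox and at 42.3, 42.8 and 36.9 CPM in T3, T6 and T14. All 3 libraries with RNF4 and Dox lay below those without Dox, but T5 at 42.1 and T12 at 42.8 CPM nearly met, and T1 alone stood far above. Its log2 difference was -1.03 ± 0.36 (SE), with an unadjusted p of 0.018 and an adjusted p of 1 in edgeR's quasi-likelihood test, and it was -0.43 without T1. ITGA11, a collagen-binding alpha chain typical of fibroblasts, had -0.56 ± 0.44 at 1.96 to 5.93 CPM. ITGA10, the last of the collagen-binding alpha chains, averaged 2.53 CPM per kb and had -0.25 ± 0.29.

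The genes around the integrins were read from lists of ligands, receptors and adaptors, and 0 members of any list were called in any comparison. Of 14 collagen genes tested, 5 lay above 0 and 9 below in RNF4 with Dox against no Dox, with a median log2 difference of -0.05. Those for the chains of collagen IV, the network collagen of basement membranes, were COL4A1 at -0.09 ± 0.44 (SE) and COL4A2 at 0.03 ± 0.44. COL4A6 had -0.65 ± 0.49 at 0.533 to 2.57 CPM, and COL13A1, a transmembrane collagen, had -0.24 ± 0.38. The other collagen receptors DDR1 and DDR2, which are receptor tyrosine kinases, had -0.08 ± 0.31 and 0.28 ± 0.30. Of 11 laminin genes, 7 lay above 0 and 4 below, with LAMA4 at 0.35 ± 0.28 and LAMA5 at -0.42 ± 0.44. Of 16 genes for fibronectin and other RGD ligands, 8 lay above 0 and 8 below, with VCAM1 at 0.57 ± 0.47 and the matricellular gene CCN1 at 0.29 ± 0.26. Without T1 and T2 the counts above and below 0 were 4 and 10 for collagens, 4 and 7 for laminins and 4 and 12 for the RGD ligands. The laminin list thus went from more members above 0 to more below, and the collagen list had more below either way.

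Of 29 genes for adaptors and kinases of focal adhesions, 17 lay above 0 and 12 below in RNF4 with Dox against no Dox, with a median log2 difference of 0.02, and without T1 and T2 the counts were 12 and 17. TNS1, a tensin that links integrins to actin, had -0.40 ± 0.39 (SE), and FERMT3, the kindlin of blood cells, had 0.32 ± 0.41. PTK2, the gene for focal adhesion kinase, had 0.13 ± 0.22, and TLN1, for talin, had -0.07 ± 0.52. Of 11 membrane partners of integrins 7 lay above 0 and 4 below. The tetraspanin gene CD82, known as a suppressor of metastasis, stood at 31.7, 27.6 and 40.5 CPM with RNF4 and Dox and at 58.1, 39.7 and 57.3 CPM in T3, T6 and T14. These groups overlapped only through T13 and T6, with a log2 difference of -0.64 ± 0.25, an unadjusted p of 0.031 and an adjusted p of 1 in edgeR's quasi-likelihood test. CD82 was named by its p in RNF4 with Dox against no Dox, where its log2 difference was -0.27 ± 0.25. Without Dox it stood at 30.4, 39.0 and 50.9 CPM in T1, T4 and T12 and overlapped the libraries with RNF4 and Dox. SLC3A2, which encodes the heavy chain CD98 that binds the tails of beta chains, had 0.21 ± 0.20 in RNF4 with Dox against no Dox.

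Among 9902 genes with a mean of at least 10 CPM, those with the pattern most like ITGA1 over the 9 libraries were SYTL5 (Pearson r = 0.93), SLC22A4 (0.88), DHRS1 (0.87), INPP5F (0.82) and CTSF (0.81). Among the most opposite were PCK2 (-0.88), RNF4 itself (-0.85), FRA10AC1 (-0.85) and DAP3 (-0.82). These values describe 9 points that share groups and depth, and they were picked from many genes. ITGA1 was chosen for its low level in the libraries with RNF4 and Dox, where RNF4 was high. The negative r with RNF4 therefore follows from the choice and is not a separate result. Of the 5 genes most like ITGA1, 2 stayed among the first 5 when T1 and T2 were left out, and 3 stayed with Spearman's rho. SYTL5, for a regulator of vesicle transport, stood at 48.1, 58.1 and 50.8 CPM without Dox, at 33.1, 26.5 and 26.2 CPM with RNF4 and Dox and at 45.9, 37.8 and 51.0 CPM under the RING mutant label. It thus had the same arrangement as ITGA1, with the libraries of RNF4 and Dox below each of the other 6. As SYTL5 was picked for its likeness to ITGA1, this is a description only. Over the 9 libraries, r of the other 9 integrins with ITGA1 ran from -0.61 for ITGA4 to 0.51 for ITGA2 and was -0.25 for ITGB1. Without T1 and T2 the highest was 0.64 for ITGB5, which had -0.08 over all 9 libraries, and ITGB1 turned to 0.32.

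Markers of the tumour cells and of host cells were set beside ITGA1, because in bulk tissue fewer cells of a type and less RNA per cell cannot be told apart. Melanocyte lineage markers summed to 84.6 to 94.4 CPM without Dox, 57.7 to 82.1 CPM with RNF4 and Dox and 83.9 to 105.0 CPM under the RING mutant label, so that, like ITGA1, all 3 libraries with RNF4 and Dox lay below the other 6. The sum came mostly from SOX10, at 58.5, 66.4 and 69.6 CPM in T1, T4 and T12, 39.0, 54.9 and 45.6 CPM with RNF4 and Dox and 80.9, 61.0 and 48.4 CPM in T3, T6 and T14, whereas the pigment genes MLANA and TYR were at or below 1.88 CPM in every library. T14 alone held more of other pigment genes, with PMEL at 10.2 CPM, TYRP1 at 8.13 CPM and DCT at 6.93 CPM. Its sum of 92.6 CPM lay above that of T5, at 82.1 CPM, only with these genes. MITF, the next in total counts after SOX10, overlapped between all groups and was highest in T5 at 22.1 CPM. Of 7 markers tested, 2 lay above 0 and 5 below in RNF4 with Dox against no Dox. Of this list of 9, 7 averaged at least 1 CPM, and the part of the shift in the sum in the ITGA1 difference was not tested. Markers of dedifferentiated melanoma, such as AXL, summed to 1268 to 1762, 1598 to 1827 and 1667 to 1872 CPM in the same group order.

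No sum of host cell markers separated the groups in the way ITGA1 did. Fibroblast markers summed to 902.7 to 2410, 1162 to 3617 and 667.0 to 4104 CPM without Dox, with RNF4 and Dox and under the RING mutant label. Pericyte and smooth muscle markers summed to 247.0 to 477.7, 292.9 to 414.4 and 292.0 to 444.3 CPM, and endothelial markers to 77.9 to 166.4, 109.1 to 199.9 and 90.0 to 173.7 CPM. The former sum came mostly from CSPG4, at 146.2 to 393.9 CPM, and the latter mostly from TIE1, at 66.4 to 159.0 CPM. Each thus mostly followed a single gene, and whether tumour or host cells expressed it was not tested. Leukocyte markers summed to 103.2 to 130.7, 73.8 to 109.9 and 103.3 to 180.1 CPM, and keratinocyte markers to 120.3 to 273.2, 119.3 to 596.5 and 125.4 to 241.7 CPM. The leukocyte sum came mostly from CD74, which alone had the arrangement of ITGA1. It stood at 51.9, 70.8 and 67.1 CPM with RNF4 and Dox and at 77.1 to 113.2 CPM in the other libraries. Of 8 leukocyte markers tested, 3 lay above 0 and 5 below in RNF4 with Dox against no Dox. Skeletal muscle markers were uneven, at 14.9 to 35.7, 13.5 to 188.6 and 18.5 to 703.6 CPM. The ranges of all 6 host lists overlapped between RNF4 with Dox and no Dox, and no listed marker found in the table was at 0 in every library. The labels name only the human genome for alignment, so whether reads of host integrins entered the counts was not tested.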

How the data were processed

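Libraries were strand-directional and poly(A)-selected from 800 ng of RNA and read as single reads, per the labels' protocols. The submitters' processing notes name TopHat2 2.0.13, HTSeq 0.6.0, DESeq2 1.10.1 and GRCh38; which tool gave the authors' fold changes and p-values is not stated, and the annotation release is not given in the sources used here. The deposited tables hold raw counts per gene, which were used, and the authors' log2 fold changes and adjusted p-values, quoted only where named. The authors' 9 normalised columns per table were not used. Columns name the group but not the sample, so libraries were assigned by group.

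The analysis used edgeR 4.0.16 in R 4.3.3: filterByExpr, TMM factors, 1 mean per group over 9 libraries and two-sided quasi-likelihood F-tests of 3 contrasts, adjusted by Benjamini-Hochberg over all 18618 genes (threshold 0.05). CPM uses TMM-scaled library sizes. Standard errors were derived by dividing the size of the log2 change by the root of the F statistic. Likeness used log2 CPM with a prior count of 2. The method was tested on simulated counts with the same dispersion for every gene and no outlying libraries, which does not give its sensitivity in these data. Gene names, coordinates and exon lengths came from GENCODE 29 on GRCh38, which held 52338 of 57820 identifiers, and promoter windows from RefSeq. The integrins, lists and rule for named genes (2 per list by unadjusted p in RNF4 with Dox against no Dox, called genes, and 5 genes at each end of likeness to ITGA1, of which 1 is not reported here) were chosen with earlier results of these data known; PELO, MOCS2, FST, ARL15, NDUFS4, ITGB4, ITGA10, COL4A1, COL4A2, PTK2, TLN1, SOX10, MLANA, TYR, PMEL, TYRP1 and AXL were added for their known roles or position after their values were seen. MITF, DCT, CD74, CSPG4 and TIE1 were added for their part in the marker sums, also after their values were seen. Alternatives used DESeq2 1.42.0 and limma 3.58.1.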

Additional observations from a re-analysis of the deposited data

How the results depend on the processing

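ITGA1 kept its direction in all 3 comparisons under all 18 alternatives, with log2 values of -1.33 to -1.03 against no Dox, -1.03 to -0.71 against the RING mutant label and -0.42 to -0.21 for that label against no Dox. Its adjusted p in the first comparison ran from 0.00734 (DESeq2, where it was 1 integrin called) to 1. These p-values are a description and not a test, because ITGA1 was chosen by that contrast. The cause was not tested for any change that follows. For RNF4 with Dox against no Dox, no low-count filter called 3 genes, DESeq2 3 and edgeR's likelihood ratio test 1, and leaving out 1 library gave 0 to 1 (1 without T6). Against the RING mutant label these gave 38, 1 and 3 genes, and for that label against no Dox 109, 4 and 5, with 1 without T1 and T2. Any difference among the 3 groups gave 87 genes without a filter, 5 with edgeR's likelihood ratio test and 3 with DESeq2's, and 0 to 1 with 1 library left out. Integrins other than ITGA1 were called under none of the alternatives, and those near 0 changed sign. With voom quality weights (limma), log2 values were -0.023 for ITGA5 and -0.007 for ITGB1 against no Dox; 0.100 for ITGA3, 0.071 for ITGA6, -0.092 for ITGAV and 0.011 for ITGB1 against the RING mutant label; and -0.255, -0.223, -0.120, -0.017 and -0.122 for ITGA3, ITGA5, ITGA6, ITGB1 and ITGB5 for that label against no Dox. Without T1 and T2, a choice made with the data known, they were -0.028 for ITGB1 and -0.018 for ITGB3, then 0.010 for ITGA3 and -0.182 for ITGAV, then -0.127, -0.117, 0.098 and -0.089 for ITGA3, ITGA5, ITGAV and ITGB5, in the same order of comparisons. ITGAV against the RING mutant label was -0.007 without a filter and -0.011 with the block for column runs, and ITGA5 for that label against no Dox was -0.001 with a filter of 1 CPM in 3 libraries. With 1 library left out, values against no Dox ran from -0.263 to 0.25 for ITGA3, -0.003 to 0.29 for ITGA5, -0.466 to 0.119 for ITGAV and -0.308 to 0.133 for ITGB5. Against the RING mutant label they ran from -0.228 to 0.023 for ITGA3, -0.167 to 0.16 for ITGAV and -0.052 to 0.03 for ITGB1. For that label against no Dox they ran from -0.23 to 0.121 for ITGA2, -0.131 to 0.379 for ITGA3, -0.121 to 0.171 for ITGA5, -0.491 to 0.094 for ITGAV and -0.094 to 0.344 for ITGB5. No paired analysis was possible because the count columns carry no replicate number of the labels; the block for column runs, which pairs libraries by column number alone, called 0 genes in each comparison. Levels per coding length were not computed, since no protein table was used here. ITGB3, the integrin with the fewest counts, had 2571 over the 9 libraries.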
